A study of Mus musculus with 16 samples.

Results

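A set of 10 genes for secreted signals and the proteins that bind them was followed in mouse hearts under pressure overload: the ligand genes Gdf6, Gdf15, Bmp2, Bmp4 and Bmp6, the activin subunit genes Inhba and Inhbb, and the follistatin genes Fst, Fstl1 and Fstl3. They are a chosen subset of the BMP, GDF, activin and follistatin genes: the rows of these 10 listed names were taken from the 55573 genes of the count table. Further genes of the family, such as Bmp5, Bmp7, Gdf11 and Inha, are counted with the pathway genes. All 10 passed edgeR's filter on low counts, as did 16857 genes in all. The 10 were listed with earlier results of these mice in view, among them Gdf6 as a gene with a large difference between the viruses after surgery. Their adjusted p values below therefore say how the fit across all genes placed them, and are a description and no independent test.

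The hearts of 16 male mice, 4 in each of 4 groups, were sampled at the apex for RNA-Seq. All mice had been given an AAV9 virus on postnatal day 1, with the cTNT promoter (active in cardiomyocytes) driving either GFP (AAV9-cTNT-GFP, here AAV9-GFP) or the long noncoding RNA Cardinal (AAV9-cTNT-CARDINAL, here AAV9-Cardinal). Mice of either virus had sham surgery or transverse aortic constriction (TAC), a tie around the aorta that raises the pressure load on the left ventricle, and hearts were taken 4 weeks later. There was no group without virus, and the strain and the age at surgery were not given in the sources used here. The libraries, of poly(A)-selected RNA read from a single end for 50 bases, held 16441997 to 21904589 counts per mouse. Levels are normalized for library size (CPM, the usual unit), and 3 counts, taken as the floor of detection, came to between 0.126 and 0.195 CPM. The floor covers counting error only.

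The ligands of this family are secreted as dimers that bring together type I and type II receptor kinases on the target cell. BMPs and GDF6 signal mainly through SMAD1, SMAD5 and SMAD9, and activins, the dimers of inhibin beta subunits, through SMAD2 and SMAD3. Follistatin and FSTL3 bind activins and keep them from their receptors. GDF15 stands apart, since its receptor is GFRAL with RET, and it is known as a circulating marker of tissue stress. In the heart the family is known for roles in valve and chamber formation, fibrosis and the response to overload.

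With AAV9-GFP, 6 of the 10 genes were called higher after TAC than after sham surgery (Gdf6, Gdf15, Inhba, Inhbb, Fstl1 and Fstl3) and 0 lower, by edgeR's quasi-likelihood test with an adjusted p under 0.05. Over all genes tested in that comparison, 17.4% were called, and 8.49% were called higher. With AAV9-Cardinal, 3 of the 10 were called higher (Inhba, Fstl1 and Fstl3) and 0 lower, where 6.48% of all genes were called and 3.10% were called higher. After TAC, 2 of the 10 were lower with AAV9-Cardinal than with AAV9-GFP (Gdf6 and Fstl1), where 0.101% of all genes were called and 0.0771% were called lower. Bmp2, Bmp4, Bmp6 and Fst were called in none of the comparisons. The 4 TAC mice lay above the 4 sham mice without overlap for 5 of the 10 with AAV9-GFP (10.1% of all genes) and for 4 with AAV9-Cardinal (6.51% of all genes), and AAV9-Cardinal TAC mice lay below AAV9-GFP TAC mice for 2 (3.19% of all genes). The median log2 fold change of the 10 after TAC was 1.11 with AAV9-GFP, beside 0.00502 over all genes, and 0.594 with AAV9-Cardinal, beside -0.000469 over all genes. For AAV9-Cardinal against AAV9-GFP after TAC it was -0.358, beside -0.00653 over all genes. The AAV9-GFP TAC mice enter both the first and the last of these comparisons, so the values are set side by side and no overlap between them is read.

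**Figure D1:**
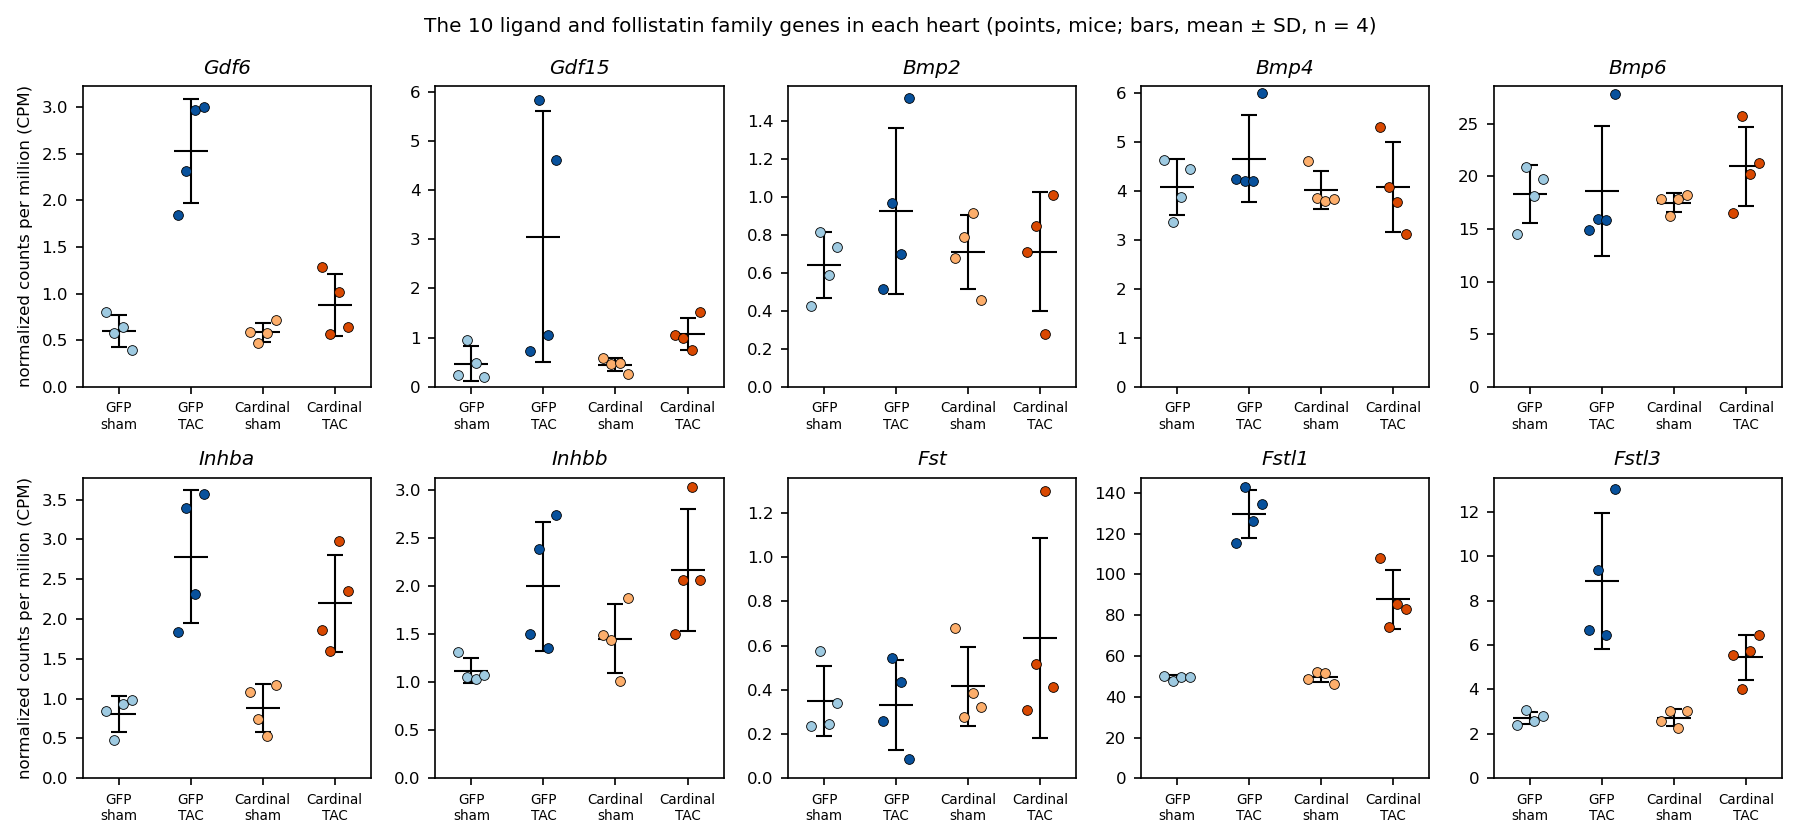
Normalized counts (CPM, vertical axis from 0) of the 10 genes in each of 16 hearts, by group (points, mice; bars, mean ± SD, n = 4). Fstl1, Fstl3 and Inhba were higher in every TAC mouse than in every sham mouse of the same virus, and Gdf15 with AAV9-GFP was high in 2 of 4 TAC mice.

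Per length of exon, the order of the genes spanned a wide range. Over all 16 mice, Fstl1 stood first at 16.1 CPM per kilobase, followed by Bmp6 at 4.83, Fstl3 at 2.02 and Bmp4 at 1.87 CPM per kilobase. Gdf15 was at 0.682, Inhbb at 0.396, Gdf6 at 0.325, Inhba at 0.261, Bmp2 at 0.210 and Fst at 0.0945 CPM per kilobase. The members whose levels rose after TAC were thus spread from the most to nearly the least abundant of the 10, and the 4 that did not pass included the second most abundant. Fst was close to the floor, with 2 to 28 counts per mouse.

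Gdf6 (ENSMUSG00000051279, GRCm38 chromosome 4, 9844372 to 9862345, plus strand, 2 exon blocks) encodes a BMP-type ligand known for joint and eye development. In AAV9-GFP sham hearts it was at 0.804, 0.576, 0.637 and 0.391 CPM (mice 1 to 4), which were 8 to 17 counts. In AAV9-GFP TAC hearts it was at 1.84, 2.31, 2.97 and 3.00 CPM (mice 1, 3, 4 and 7), which were 43 to 69 counts. No TAC mouse overlapped a sham mouse, and the fitted rise was 4.16-fold (log2 fold change 2.06, SE 0.26, adjusted p 9.93e-05 by edgeR). With AAV9-Cardinal, sham hearts were at 0.587, 0.465, 0.577 and 0.714 CPM and TAC hearts at 1.28, 0.564, 1.02 and 0.645 CPM. Mice 1 and 5 of the AAV9-Cardinal TAC group lay above every sham mouse of that virus, and mice 4 and 6 lay among the sham mice. The difference did not pass (log2 fold change 0.60, 95% interval 0.02 to 1.18, unadjusted p 0.0578 and adjusted p 0.248 by edgeR).

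After TAC, all 4 AAV9-Cardinal mice lay below all 4 AAV9-GFP mice for Gdf6, with means of 0.879 ± 0.336 and 2.53 ± 0.56 CPM (SD, n = 4). The level was 2.86-fold lower (log2 fold change -1.51, SE 0.24, adjusted p 0.0392 by edgeR). Means in sham hearts were 0.586 ± 0.102 CPM with AAV9-Cardinal and 0.602 ± 0.170 CPM with AAV9-GFP (SD, n = 4), and the 2 groups overlapped. The order of the 4 groups was therefore AAV9-GFP TAC alone at the top, then AAV9-Cardinal TAC and the 2 sham groups, neighbours that overlapped. The rise with TAC was 1.46 log2 units smaller with AAV9-Cardinal, and as a test of interaction this did not pass across all genes (95% interval -2.24 to -0.67, adjusted p 0.302 by edgeR). The lower level after TAC kept its call without AAV9-GFP sham mouse 1 or 4, AAV9-GFP TAC mouse 1 or 4, or AAV9-Cardinal TAC mouse 1. It lost the call without any one of the other 11 mice (adjusted p 0.0537 to 0.153), without a filter on low counts (0.0723) and with only the 8 TAC mice in the fit (0.218). Without AAV9-Cardinal TAC mouse 1 the log2 fold change was -1.75 and the adjusted p 0.00293 by edgeR.

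Gdf15 (ENSMUSG00000038508, chromosome 8, 70629393 to 70632456, minus strand) encodes the stress-induced ligand of GFRAL. AAV9-GFP TAC hearts were at 0.729, 5.83, 1.05 and 4.61 CPM (mice 1, 3, 4 and 7), and AAV9-GFP sham hearts at 0.236, 0.960, 0.490 and 0.196 CPM. Mice 3 and 7 stood far above every sham heart, whereas mice 1 and 4 lay near the highest sham heart. The groups overlapped at mouse 1, although the difference was called (log2 fold change 2.69, SE 0.63, adjusted p 0.00801 by edgeR), and the standard deviation in the TAC group was 83.6% of its mean. With AAV9-Cardinal, TAC hearts were at 1.06, 0.987, 0.745 and 1.52 CPM and sham hearts at 0.587, 0.465, 0.480 and 0.260 CPM. These groups did not overlap, but the difference did not pass (log2 fold change 1.22, 95% interval -0.16 to 2.60, adjusted p 0.334 by edgeR). With only the 8 AAV9-Cardinal mice in the fit it did pass (adjusted p 0.0414 by edgeR). That fit called 4 of the 9 members tested, beside 898 of 16210 genes. GFRAL itself had 0 counts in every heart, and the gene for its partner RET is described with the receptors.

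The 3 BMP genes were not called in any comparison. Bmp6 (ENSMUSG00000039004, chromosome 13, 38345107 to 38500302, plus strand), known for control of iron balance through hepcidin, was the most abundant of the 7 ligand and subunit genes. Its level was 18.3 ± 2.80 CPM in AAV9-GFP sham, 18.6 ± 6.15 CPM in AAV9-GFP TAC, 17.5 ± 0.90 CPM in AAV9-Cardinal sham and 20.9 ± 3.75 CPM in AAV9-Cardinal TAC hearts (SD, n = 4). In AAV9-GFP TAC hearts it was at 14.9, 15.9, 15.8 and 27.8 CPM, with mouse 7 far above the other 3. The fitted change after TAC was 0.03 with AAV9-GFP (95% interval -0.33 to 0.38) and 0.26 with AAV9-Cardinal (95% interval -0.10 to 0.62) on the log2 scale. The first of these became -0.23 without AAV9-GFP TAC mouse 7 and -0.07 without AAV9-GFP sham mouse 1, so it has no settled direction. Txndc5, on the opposite strand, overlaps 5.74% of the exon bases of Bmp6 and was at 27.1 to 36.4 CPM in these hearts.

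Bmp4 (ENSMUSG00000021835, chromosome 14, 46383520 to 46390669, minus strand), a ligand known from early mesoderm and the outflow tract, was at 4.08 ± 0.58 and 4.66 ± 0.89 CPM in AAV9-GFP sham and TAC hearts, and at 4.02 ± 0.39 and 4.08 ± 0.91 CPM in AAV9-Cardinal sham and TAC hearts (SD, n = 4). AAV9-GFP TAC mouse 7, at 6.00 CPM, again stood above the other 3 mice of its group (4.20 to 4.24 CPM). The fitted log2 fold changes after TAC were 0.19 (95% interval -0.13 to 0.51) with AAV9-GFP and 0.02 (95% interval -0.31 to 0.34) with AAV9-Cardinal. Bmp2 (ENSMUSG00000027358, chromosome 2, 133552159 to 133562885, plus strand), known for valve cushion formation, was low, with means between 0.641 and 0.925 CPM and 6 to 35 counts per mouse. Its intervals were wide, from -0.20 to 1.26 with AAV9-GFP and from -0.77 to 0.74 with AAV9-Cardinal on the log2 scale, so changes within these bounds could not be told from none at this depth.

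Inhba (ENSMUSG00000041324, chromosome 13, 16011851 to 16031621, plus strand) encodes the beta A subunit, whose dimer is activin A. It was at 0.851, 0.480, 0.931 and 0.978 CPM in AAV9-GFP sham hearts and at 1.84, 3.40, 2.32 and 3.57 CPM in AAV9-GFP TAC hearts. With AAV9-Cardinal it was at 1.08, 0.744, 0.529 and 1.17 CPM in sham hearts and at 1.86, 1.60, 2.98 and 2.35 CPM in TAC hearts. All 8 TAC hearts lay above all 8 sham hearts. The rise was 3.42-fold with AAV9-GFP (log2 fold change 1.77, SE 0.29, adjusted p 0.000782 by edgeR) and 2.51-fold with AAV9-Cardinal (log2 fold change 1.33, SE 0.30, adjusted p 0.0177 by edgeR). The second call was lost without AAV9-Cardinal sham mouse 2 (adjusted p 0.0631) and without AAV9-Cardinal TAC mouse 5 (adjusted p 0.0645), both by edgeR. The TAC groups of the 2 viruses overlapped, with a difference of -0.34 on the log2 scale (95% interval -0.85 to 0.16).

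Inhbb (ENSMUSG00000037035, chromosome 1, 119415465 to 119422248, minus strand) encodes the beta B subunit of activin B. AAV9-GFP sham hearts were at 1.32, 1.06, 1.03 and 1.08 CPM and TAC hearts at 1.5, 2.39, 1.36 and 2.74 CPM. The groups did not overlap, but TAC mice 1 and 4 lay just above sham mouse 1. The rise was 1.78-fold (log2 fold change 0.83, SE 0.26, adjusted p 0.0403 by edgeR), a call that was kept without AAV9-GFP TAC mouse 1 or 4, AAV9-Cardinal sham mouse 3 or 4, or AAV9-Cardinal TAC mouse 1, 5 or 6. It was lost without any one of the other 9 mice (adjusted p 0.0502 to 0.131), without a filter on low counts (0.0697) and with only the 8 AAV9-GFP mice in the fit (0.0554). With AAV9-Cardinal the TAC hearts, at 1.5, 2.07, 3.03 and 2.07 CPM, overlapped the sham hearts, at 1.49, 1.44, 1.01 and 1.88 CPM (log2 fold change 0.59, 95% interval 0.08 to 1.09, adjusted p 0.193 by edgeR). The 2 viruses differed by 0.12 log2 units after TAC (95% interval -0.36 to 0.59), which is the smallest difference between the viruses among the 6 genes called after TAC.

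Fstl1 (ENSMUSG00000022816, chromosome 16, 37776873 to 37836514, plus strand) encodes a secreted glycoprotein with a follistatin-like domain that is made by fibroblasts and other heart cells. It was the most abundant of the 10. It was also the most even between mice in 3 of the 4 groups, while in AAV9-Cardinal sham hearts its coefficient of variation was 5.45% and that of Bmp6 5.15%. AAV9-GFP sham hearts held 50.3, 47.8, 49.6 and 49.9 CPM, and AAV9-GFP TAC hearts 115.3, 142.7, 126.3 and 134.3 CPM. AAV9-Cardinal sham hearts held 48.8, 52.2, 51.5 and 46.3 CPM, and AAV9-Cardinal TAC hearts 108.2, 74.0, 85.4 and 83.2 CPM. The 3 levels were separate: all sham hearts lay below all AAV9-Cardinal TAC hearts, and these lay below all AAV9-GFP TAC hearts. Within the AAV9-Cardinal TAC group, mouse 1 lay nearest to the AAV9-GFP TAC range.

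The Fstl1 rise after TAC was 2.62-fold with AAV9-GFP (log2 fold change 1.39, SE 0.09, adjusted p 9.3e-07 by edgeR) and 1.76-fold with AAV9-Cardinal (log2 fold change 0.82, SE 0.09, adjusted p 0.000516 by edgeR). After TAC the level was 1.48-fold lower with AAV9-Cardinal (log2 fold change -0.56, SE 0.09, adjusted p 0.0392 by edgeR). That call held without AAV9-GFP sham mouse 4, AAV9-GFP TAC mouse 1 or 4, or AAV9-Cardinal TAC mouse 1, and was lost without any one of the other 12 mice (adjusted p 0.0537 to 0.173), without a filter on low counts (0.0723) and with only the 8 TAC mice in the fit (0.225). The rise with TAC was -0.57 log2 units apart between the viruses (95% interval -0.83 to -0.31), which did not pass (adjusted p 0.302 by edgeR, 0.0135 by DESeq2). Without AAV9-Cardinal TAC mouse 1 it was -0.691 with an adjusted p of 0.00795 by edgeR, so the edgeR call depended on that heart. Leaving it out also raised the number of all genes called for this difference from 2 to 79.

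Fstl3 (ENSMUSG00000020325, chromosome 10, 79777272 to 79782630, plus strand) encodes a follistatin relative that binds activins and myostatin. It was at 2.41, 3.07, 2.60 and 2.79 CPM in AAV9-GFP sham hearts and at 6.69, 9.36, 6.43 and 13.0 CPM in AAV9-GFP TAC hearts. With AAV9-Cardinal it was at 2.58, 3.02, 2.26 and 3.05 CPM in sham hearts and at 5.53, 4.04, 5.73 and 6.45 CPM in TAC hearts. Every TAC heart lay above every sham heart, and the highest AAV9-Cardinal TAC heart lay just inside the AAV9-GFP TAC range. The rise was larger in fitted size with AAV9-GFP (log2 fold change 1.70, SE 0.21, adjusted p 9.05e-05 by edgeR) than with AAV9-Cardinal (2.00-fold, log2 fold change 1.00, SE 0.22, adjusted p 0.0154 by edgeR). After TAC it was at 8.86 ± 3.04 CPM with AAV9-GFP and 5.44 ± 1.01 CPM with AAV9-Cardinal (SD, n = 4), a difference that did not pass (log2 fold change -0.70, 95% interval -1.09 to -0.32, adjusted p 0.117 by edgeR). Of the exon bases of Fstl3, 47.3% are overlapped on the opposite strand by Prss57. Prss57 had 0 counts in every heart, and the use of strand in the counting was not given in the sources used here.

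Fst (ENSMUSG00000021765, chromosome 13, 114452290 to 114458951, minus strand), the gene for follistatin, was the lowest of the 10, at 0.350 ± 0.158, 0.332 ± 0.202, 0.416 ± 0.18 and 0.636 ± 0.453 CPM (SD, n = 4) in sham and TAC hearts with AAV9-GFP and then in sham and TAC hearts with AAV9-Cardinal. AAV9-GFP TAC mouse 7 had 2 counts, under the floor, while AAV9-Cardinal TAC mouse 5 had 28. The intervals of the TAC change ran from -1.19 to 1.04 with AAV9-GFP and from -0.42 to 1.58 with AAV9-Cardinal on the log2 scale, so changes within these bounds could not be told from none.

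**Figure D2:**
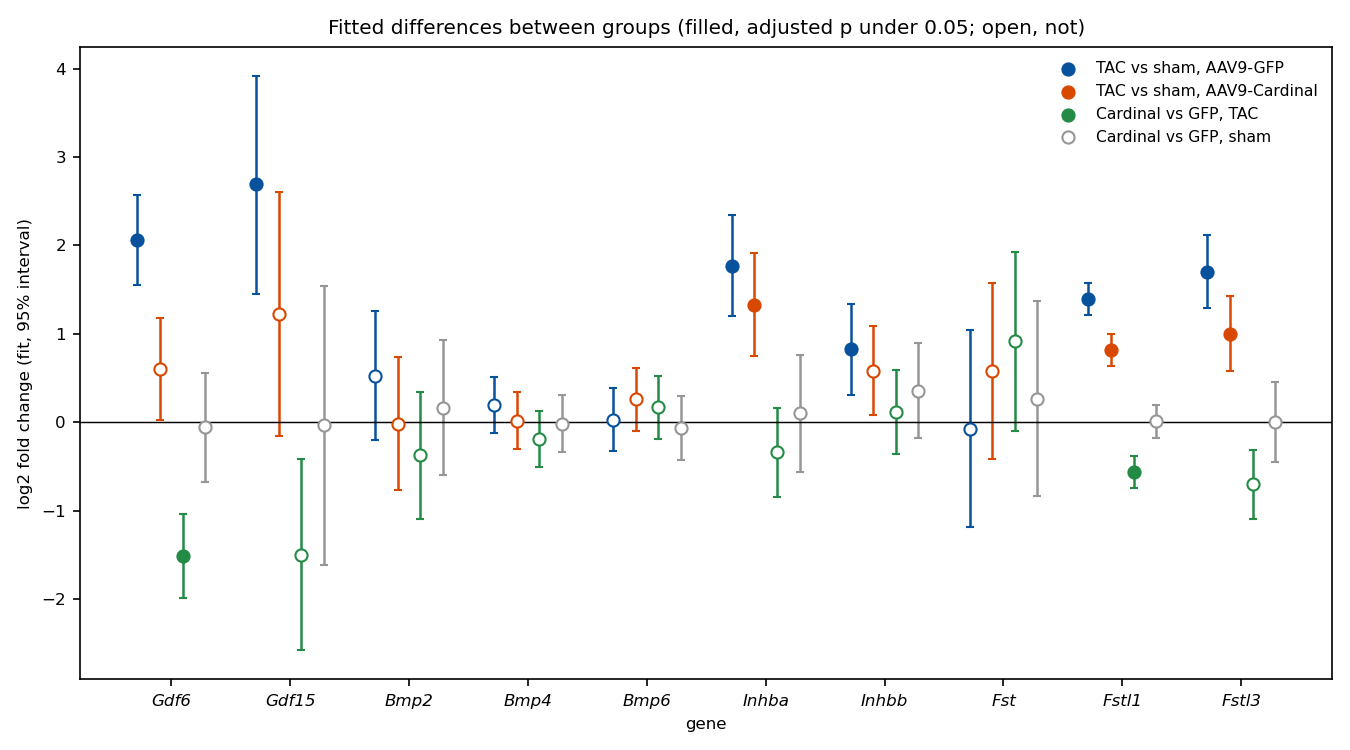
Fitted log2 fold changes of the 10 genes (vertical axis, 95% intervals as bars) for TAC against sham with each virus and for AAV9-Cardinal against AAV9-GFP after TAC and after sham surgery. The intervals use a normal approximation and are narrower than the test allows. Filled points passed an adjusted p of 0.05 in edgeR. In sham hearts all 10 differences between the viruses were open, and after TAC the filled ones were Gdf6 at -1.51 and Fstl1 at -0.56.

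In sham hearts, 0 of the 10 genes differed between the viruses by edgeR's adjusted p, 0 had an unadjusted p under 0.05, and DESeq2 called 0. Of all genes, 0.0119% were called in this comparison. The median log2 difference of the 10 was 0.00434. The difference in TAC response between the viruses was called for 0 of the 10 by edgeR, beside 0.0119% of all genes. At an unadjusted p under 0.05 by edgeR it held for 3 (Gdf6, Fstl1 and Fstl3), and for 1722 of all 16857 genes. DESeq2 called 1 (Fstl1), beside 137 of all genes, and gave no adjusted p for the other 9. The fitted difference was negative, a smaller rise with AAV9-Cardinal, for 8 of the 10, with Bmp6 and Fst as the exceptions. Its median over the 10 was -0.493, beside -0.000706 over all genes.

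The 3 genes called after TAC with both viruses (Inhba, Fstl1 and Fstl3) were among the 7 of the 10 genes with an entry in the RefSeq promoter sequences of GRCm38.p6. The sequences of these 3 are shown because they are the members called higher after TAC with both viruses. Each is on the plus strand and lies within the 250 bases before the RefSeq start. The stretch printed ends where the GENCODE gene begins, which leaves 68 bases for Fstl1 and 248 for Fstl3. Matches to any of 8 motifs searched on both strands are in capitals.
Fstl1, chr16:37776805-37776872: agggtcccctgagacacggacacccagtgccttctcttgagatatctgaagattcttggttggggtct
Fstl3, chr10:79777024-79777271: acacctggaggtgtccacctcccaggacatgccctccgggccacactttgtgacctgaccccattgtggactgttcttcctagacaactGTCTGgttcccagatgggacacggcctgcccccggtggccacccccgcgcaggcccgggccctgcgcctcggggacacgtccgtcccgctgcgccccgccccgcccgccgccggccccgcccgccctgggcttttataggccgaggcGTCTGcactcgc
Inhba, chr13:16011601-16011850: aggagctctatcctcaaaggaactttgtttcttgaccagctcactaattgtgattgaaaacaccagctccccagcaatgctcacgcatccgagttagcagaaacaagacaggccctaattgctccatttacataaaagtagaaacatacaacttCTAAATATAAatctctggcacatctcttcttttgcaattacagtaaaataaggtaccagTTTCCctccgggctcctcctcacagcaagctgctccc

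The capitals in Fstl3 mark CAGAC, the core letters bound by SMAD proteins, read on the minus strand, with the leftmost base at -161 and -14 from the RefSeq start. In Inhba they mark a MEF2 site at -96 and GGAAA, the core letters of NFAT sites, read on the minus strand at -37. The window of Fstl1 held none of the 8 motifs over its 250 bases. The motifs searched were the AP-1 site TGANTCA, the cAMP element TGACGTCA, the SMAD box GTCTAGAC, the shorter SMAD site CAGAC, the GC-rich SMAD site GGCGCC, the NFAT core GGAAA, the CArG box of SRF and the MEF2 site, and none of the spelled motifs lies within another. Of 32851 promoter windows of the same length, 42.2% held CAGAC, 55.6% GGAAA and 2.92% a MEF2 site. The others were held by 6.75% (AP-1), 1.55% (cAMP element), 0.167% (SMAD box), 9.59% (GC-rich SMAD site) and 1.47% (CArG box). The first of these shares are large, so a match there is common in any gene, and matches are given as letters in the window only. GC content was 68.0% in the window of Fstl1, 71.2% in that of Fstl3 and 43.2% in that of Inhba.

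The hearts within a group did not move evenly. Of the 4 AAV9-GFP TAC mice, mouse 7 had the highest level of 7 of the 10 genes (Gdf6, Bmp2, Bmp4, Bmp6, Inhba, Inhbb and Fstl3), and mouse 3 of the other 3 (Gdf15, Fst and Fstl1). Mouse 1 had the lowest level of 6. In the AAV9-Cardinal TAC group, mouse 1 was highest for Gdf6, Bmp4 and Fstl1 and lowest for Bmp6, Inhbb and Fst. The heart with the highest Inhba, Inhbb and Fst was mouse 5, and that with the highest Gdf15, Bmp2 and Fstl3 was mouse 6. Gdf15 stood high in AAV9-GFP TAC hearts 3 and 7. These 2 hearts also held the 2 highest levels of that group for Bmp2, Bmp6, Inhba, Inhbb, Fstl1 and Fstl3. That did not hold for Gdf6, Bmp4 and Fst.

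**Figure D3:**
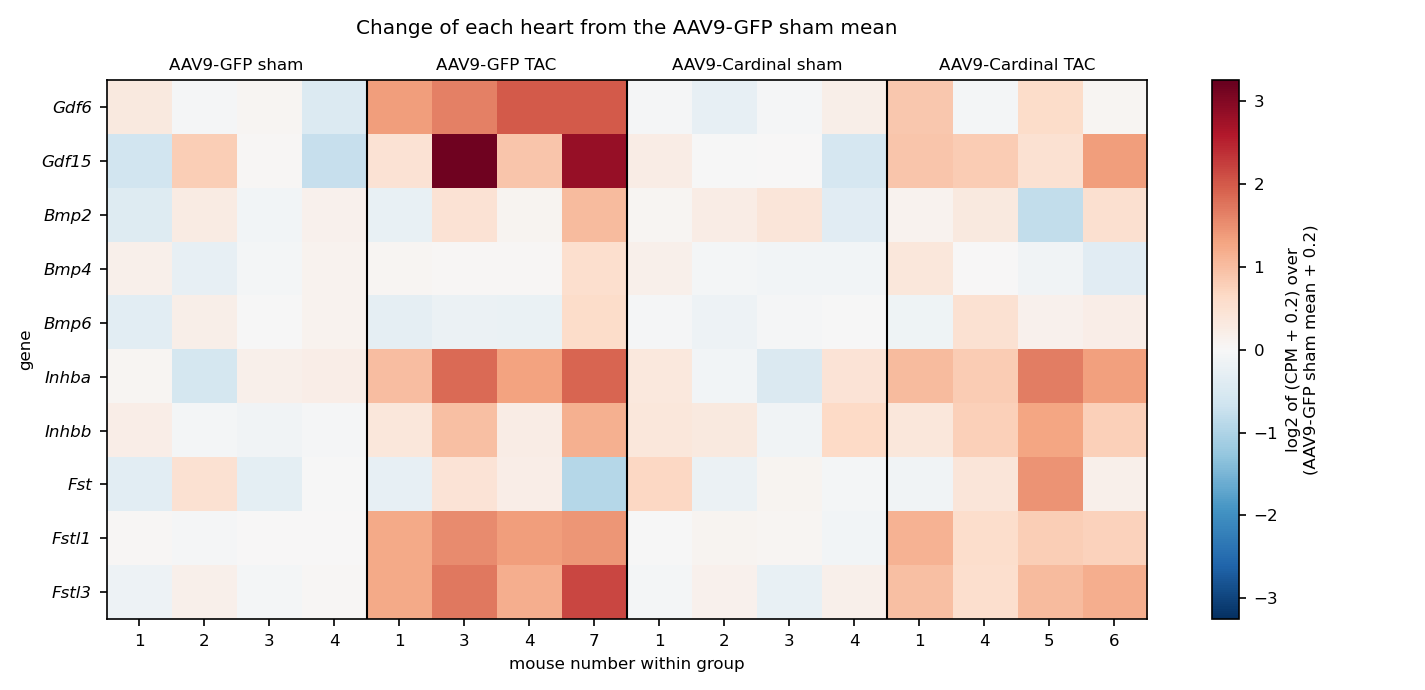
Change of each gene (rows) in each of 16 hearts (columns, by group and mouse number) from the mean of AAV9-GFP sham hearts, as log2 of CPM with 0.2 CPM added. Red is higher and blue lower. The rows of Gdf6, Inhba, Fstl1 and Fstl3 are red in all 4 AAV9-GFP TAC hearts, and that of Gdf15 is darkest in mice 3 and 7.

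After group means were subtracted, which leaves the spread within groups, the 2 activin subunit genes remained alike over the 16 hearts (Pearson r 0.74, and 0.83 before subtraction). Inhbb and Fstl3 were at r 0.62 after subtraction (0.72 before), and Gdf15 and Fstl3 at r 0.61 (0.85 before). Fstl1 and Fstl3, at r 0.94 over all hearts, were at r 0.36 after subtraction, and Gdf6 and Gdf15 at r 0.06 (0.69 before). These are descriptions over 16 mice that share the 4 groups, and no p is given.

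Of 14292 genes averaging 1 CPM or more, the 3 closest to Fstl1 in log2 CPM over the 16 mice were the collagen genes Col5a2 (r 0.989, and 0.875 with group means subtracted) and Col8a1 (r 0.989 and 0.777) and the matrix gene Cilp (r 0.984 and 0.844). The closest to Gdf6 were Postn, the gene for periostin (r 0.928 and 0.556), Lxn (r 0.925 and 0.581) and Mrc2 (r 0.924 and 0.627). Among the 3 genes closest to Inhba were Synpo2l (r 0.939 and 0.699) and Napepld (r 0.932 and 0.608). Fstl3 was closest to Otulin (r 0.971 and 0.872), Synpo2l (r 0.966 and 0.794) and Xirp2 (r 0.960 and 0.711), of which Synpo2l and Xirp2 are genes of the striated muscle contractile apparatus. Gdf15 was closest to Tsku (r 0.919 and 0.815), Nmrk2 (r 0.916 and 0.793) and Abcc3 (r 0.910 and 0.83). Inhbb was closest to Cldn5, a gene of endothelial tight junctions (r 0.874 and 0.720), and to Afap1l2 (r 0.873 and 0.723) and Ptpn4 (r 0.847 and 0.735).

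The other genes of the pathway were taken from a list of 88 ligands, receptors, co-receptors, secreted antagonists, processing proteases, SMAD genes and targets. Of these, 54 passed the filter and 34 were too low to test, among them the antagonist gene Grem1 and the ligand gene Gdf2, each with 0 counts in every heart. With AAV9-GFP, 10 of the 54 (18.5%) changed after TAC, 5 higher and 5 lower, where 17.4% of all genes were called. With AAV9-Cardinal, 1 of the 54 (1.85%) changed, where 6.48% of all genes were called. In the other comparisons edgeR called 0 of the 54. After TAC, 11 of them differed between the viruses at an unadjusted p under 0.05 by edgeR, beside 2528 of all 16857 genes. DESeq2 called 1 of them, beside 428 of all genes. In sham hearts the unadjusted count was 1, beside 437 of all genes, and DESeq2 called 0 of the 54. For the difference in TAC response the unadjusted count was 7, beside 1722 of all genes, and DESeq2 called 0 of the 54.

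Of the 23 other ligand genes listed, 7 were tested and 0 of these were called after TAC with either virus. Of the 12 receptor genes listed, 8 were tested and 1 of these, Ret, was called after TAC. Their levels differed widely. Bmpr1a was at 11.9, Acvrl1 at 5.48, Bmpr2 at 5.21, Acvr1b at 3.58, Acvr2a at 3.31, Acvr1 at 2.18, Ret at 0.839 and Acvr2b at 0.374 CPM per kilobase over all mice. Ret, which signals for GDF15 together with GFRAL, was at 5.34, 6.68, 6.96 and 10.6 CPM in AAV9-GFP sham hearts and at 3.43, 4.15, 4.68 and 2.91 CPM in TAC hearts. It fell in AAV9-GFP hearts after TAC (log2 fold change -0.96, SE 0.23, adjusted p 0.00900 by edgeR), with no overlap between the groups. With AAV9-Cardinal its log2 fold change was -0.41 (adjusted p 0.317 by edgeR).

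Of the 6 co-receptor genes tested, Bambi, a decoy receptor for the family, rose from 8.31 to 15 CPM with AAV9-GFP (log2 fold change 0.86, SE 0.18, adjusted p 0.00500 by edgeR). Hfe2, the gene for the BMP co-receptor hemojuvelin, fell from 123.7 to 102.3 CPM (log2 fold change -0.27, SE 0.08, adjusted p 0.0292 by edgeR), and its groups overlapped. The Hfe2 call was lost without AAV9-GFP sham mouse 1, 2 or 3 or AAV9-GFP TAC mouse 3 or 7 (adjusted p up to 0.102). With AAV9-Cardinal, Bambi had a log2 fold change of 0.52 (adjusted p 0.116 by edgeR).

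Of the 10 secreted antagonists and modulators tested, Nbl1, a BMP antagonist, rose with AAV9-GFP, and Bmper and Wfikkn2 fell. Bmper, the BMP-binding endothelial regulator, was at 4.49, 4.75, 5.73 and 4.35 CPM in AAV9-GFP sham hearts and at 2.36, 2.52, 2.84 and 2.35 CPM in TAC hearts (log2 fold change -0.94, SE 0.16, adjusted p 0.00107 by edgeR). Wfikkn2, known to bind myostatin and GDF11, fell with both viruses, by 0.53 on the log2 scale with AAV9-GFP (adjusted p 0.00729 by edgeR) and by 0.45 with AAV9-Cardinal (adjusted p 0.0409 by edgeR). The latter call was lost without AAV9-Cardinal sham mouse 2, 3 or 4, AAV9-Cardinal TAC mouse 1, 5 or 6, or AAV9-GFP sham mouse 2 or 3 (adjusted p up to 0.126). Nbl1 was at 7.30 CPM in AAV9-GFP sham and 12.4 CPM in AAV9-GFP TAC hearts (log2 fold change 0.77, SE 0.20, adjusted p 0.0131 by edgeR). Its groups overlapped, and without AAV9-GFP TAC mouse 3 the adjusted p was 0.0526.

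Among the proteases that release or activate the ligands, Pcsk6 fell by 0.43 on the log2 scale (SE 0.08, adjusted p 0.00259 by edgeR) and Bmp1, a procollagen protease, rose by 0.29 (SE 0.06, adjusted p 0.00515 by edgeR) with AAV9-GFP, each without overlap. Of the 10 SMAD and SMAD ligase genes, Smad1 rose with AAV9-GFP (log2 fold change 0.34, SE 0.11, adjusted p 0.0451 by edgeR), a call kept without AAV9-GFP sham mouse 3 or 4, AAV9-GFP TAC mouse 4, AAV9-Cardinal sham mouse 3 or 4, or AAV9-Cardinal TAC mouse 1, and lost without any one of the other 10 (adjusted p up to 0.131). Of the 8 targets tested, the homeobox gene Msx1 rose from 1.59 to 2.63 CPM (log2 fold change 0.72, SE 0.19, adjusted p 0.0149 by edgeR), with overlap. The BMP targets most often read were not called after TAC with AAV9-GFP: Id1 had a log2 fold change of -0.03, Id2 of -0.04 and Id3 of 0.33 (adjusted p 0.909, 0.925 and 0.125 by edgeR). The inhibitory SMAD genes, also known as targets, were likewise not called, with Smad6 at -0.07 and Smad7 at 0.06.

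**Figure D4:**
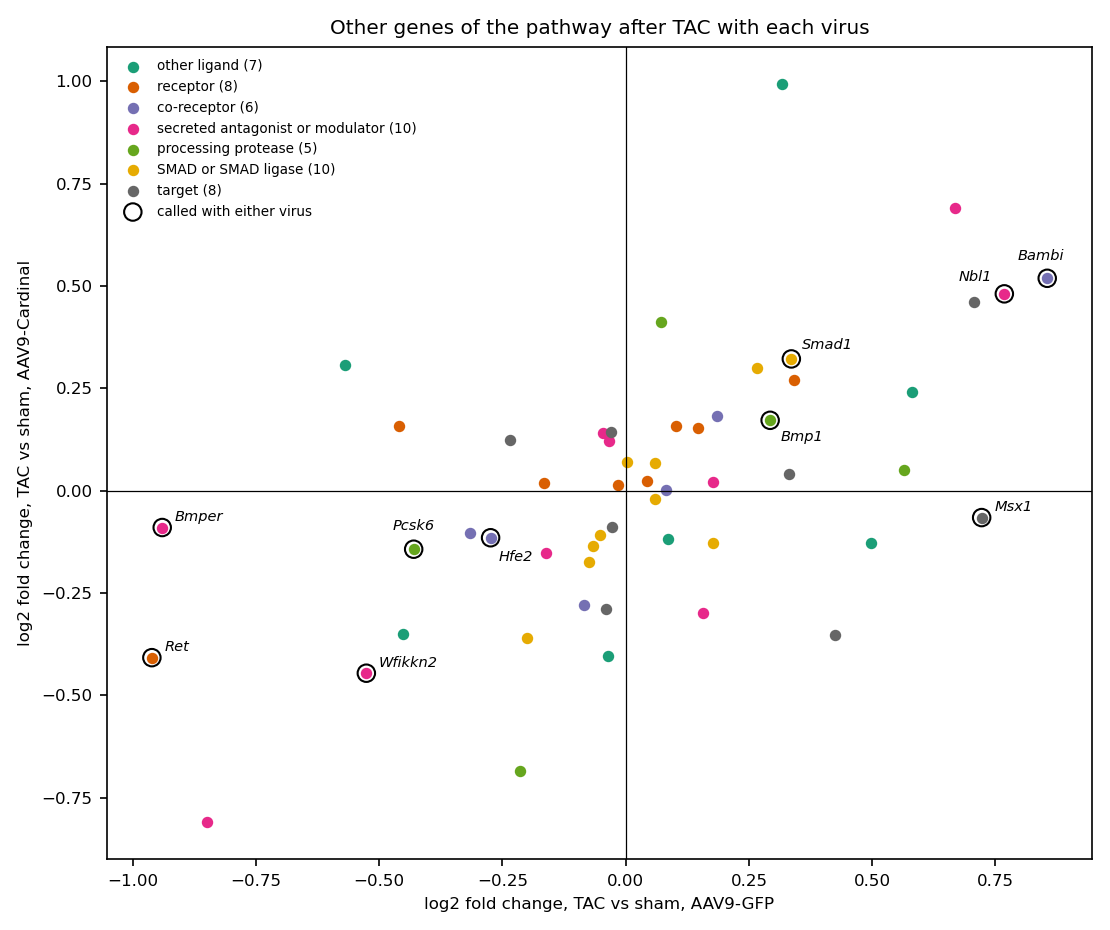
Log2 fold change after TAC of the 54 other pathway genes tested, with AAV9-GFP (horizontal axis) and AAV9-Cardinal (vertical axis), coloured by role, with circles around the 10 genes called with either virus. Ret, Bmper and Wfikkn2 lie at -0.96, -0.94 and -0.53 on the horizontal axis and Bambi, Nbl1 and Msx1 at 0.86, 0.77 and 0.72.

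Marker genes of other cell types moved in the same comparisons. The summed level of 6 fibroblast markers was 425.7 to 486.0 CPM in AAV9-GFP sham, 578.5 to 715.6 CPM in AAV9-GFP TAC, 411.9 to 459.2 CPM in AAV9-Cardinal sham and 416.1 to 626.4 CPM in AAV9-Cardinal TAC hearts. In the last group the highest value was that of mouse 1, the others being 416.1, 431.0 and 438.9 CPM, and mouse 1 was also the heart with the highest Gdf6 and Fstl1 of that group. With AAV9-GFP, 3 of the 6 fibroblast markers were called higher after TAC, and with AAV9-Cardinal 0. The 6 cardiomyocyte markers summed to 33823 to 34861 CPM in AAV9-GFP sham and 24215 to 29389 CPM in AAV9-GFP TAC hearts, with 5 of 6 called lower. They summed to 32732 to 36346 and 29914 to 32472 CPM in AAV9-Cardinal sham and TAC hearts, with 1 of 6 called higher and 1 lower. In AAV9-GFP TAC hearts 2 of 6 endothelial and 1 of 6 macrophage markers were called higher. Of 6 mural markers, 2 were called higher and 1 lower with AAV9-GFP, and 1 lower with AAV9-Cardinal. The 6 atrial markers summed to 42.8 to 97.0 and 432.1 to 1398 CPM in AAV9-GFP sham and TAC hearts, and to 45.3 to 107.0 and 184.3 to 399.9 CPM in AAV9-Cardinal sham and TAC hearts. The sum was highest in AAV9-GFP TAC mice 3 (1398 CPM) and 7 (676.1 CPM), the hearts in which Gdf15 stood high. It was carried by Nppa, the natriuretic peptide gene, which was the 1 atrial marker called higher with each virus, while the other 5 did not exceed 1.76 CPM in any heart and Myl7 and Sln had 0 counts in 15 of 16 hearts. The lymphocyte and adipocyte lists were near 0, with 0 of 6 and 0 of 4 genes tested. The part of these cell types in the changes of the 10 genes was not tested, and in bulk tissue fewer cells of a type and less RNA per cell cannot be told apart.

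Cardinal, counted as Gm12295, checked the labels: it was at 3.42 to 7.24 CPM in the 8 AAV9-GFP hearts and at 18.3 to 93.9 CPM in the 8 AAV9-Cardinal hearts. Reads of the vector and of the endogenous gene cannot be told apart. AAV9-Cardinal TAC mouse 1 held 93.9 CPM and the other 3 mice of its group 18.3 to 20.6 CPM. With that mouse left out, the 10 genes had 2 calls between the viruses after TAC (Gdf6 and Fstl1, as with it), while the number of genes called in all rose from 17 to 535. The share of counts from mitochondrial genes also moved with surgery, at 32.8% to 34% in sham and 30.3% to 31% in TAC hearts with AAV9-GFP, and at 32.2% to 33.7% in sham and 31% to 31.9% in TAC hearts with AAV9-Cardinal. Its part in the changes of the 10 genes was not tested.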

How the data were processed

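Per the labels, poly(A)-selected RNA of the heart apex was read on the DNBSEQ platform. The submitters' processing notes name FastQC, HISAT2 2.1.0, GRCm38 and edgeR 3.26.1. The counting program, its annotation, its use of strand and its handling of reads with several matches were not given in the sources used here. The authors deposited raw counts per Ensembl gene, with a column per mouse (0 columns were left unused). GENCODE M21 on GRCm38 gave symbols to 55480 of the 55573 genes and left 93 without.

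edgeR 4.0.16 (R 4.3.3) was used for TMM normalization, the expression filter for 4 groups (16857 genes left) and quasi-likelihood tests. All 16 mice entered 1 model of 4 group means, each comparison was a contrast, with Benjamini-Hochberg adjustment over all genes tested and a threshold of 0.05. Standard errors came from that fit, and the common coefficient of variation was 0.128. The 95% intervals were built from these standard errors with a normal approximation, so they are narrower than the quasi-likelihood test allows. Such an interval can exclude a null change although the unadjusted quasi-likelihood p is above 0.05, as for Gdf6 after TAC with AAV9-Cardinal. Log2 CPM used a prior count of 2. Mice of a group differed by more than sampling noise (chi-square per degree of freedom 5.49 to 16.4), so none was taken as a second reading of the same library. This check does not show whether a heart stands apart from its group, and all were kept. The labels number the samples within groups and were read as 1 mouse each, so p-values measure the spread between these samples. Alternatives were DESeq2 1.42.0, RLE normalization, other filters, only the 8 mice compared, mouse number as a block and each mouse left out. The script was tested on simulated data. Python 3.11.15 was used for tables (pandas 2.3.3, numpy 2.4.6) and plots (matplotlib 3.10.9).

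The members, the pathway list, the marker lists and the motifs were chosen with earlier results of these data known. The genes named were the 10 members, every pathway gene called (at most 6 per role), the main receptors and SMAD genes as levels, Gm12295, and for each member called and at least at 1 CPM the 3 genes with the highest Pearson r. One of the latter genes is not reported here. Gene positions and exon overlaps came from GENCODE M21, and promoters from RefSeq. Of 50-base stretches, 2.69% in Fstl1, 0.356% in Bmp4, 0.331% in Inhba and 0% in the other members also occur in another gene.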

Additional observations from a re-analysis of the deposited data

Results flagged for a closer look

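A mouse stood apart from the other 3 of its group, by the gap between it and the nearest of them as a share of the whole range (Dixon's test), in 10 of 88 groups of 4 examined. Chance gives about 1 in 20. AAV9-GFP TAC mouse 7 stood above the others for Bmp4 (6.00 CPM, others 4.20 to 4.24 CPM) and Bmp6 (27.8 CPM, others 14.9 to 15.9 CPM). AAV9-Cardinal sham mouse 1 was high for Bmp4 (4.61 CPM, others 3.80 to 3.86 CPM), and mouse 2 of that group was low for Bmp6 (16.2 CPM, others 17.8 to 18.2 CPM). AAV9-GFP sham mouse 1 was high for Inhbb (1.32 CPM, others 1.03 to 1.08 CPM). Among the pathway genes, AAV9-Cardinal TAC mouse 1 was low for Nbl1 (7.48 CPM, others 10.2 to 10.5 CPM), AAV9-GFP TAC mouse 4 was high for Wfikkn2 (3.72 CPM, others 2.94 to 3.04 CPM), and AAV9-GFP TAC mouse 3 was high for Bmp1 (40.4 CPM, others 36.0 to 36.6 CPM). AAV9-Cardinal TAC mouse 1 was high for Cardinal, counted as Gm12295 (93.9 CPM, others 18.3 to 20.6 CPM). AAV9-Cardinal sham mouse 4 had the smallest library (16441997 counts, others 21603910 to 21786630).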

How the results depend on the processing

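Of 50 values (10 genes in 5 comparisons), 11 were called, and 0 of these 11 changed direction under any alternative. Called under all alternatives that gave an adjusted p were 6: Gdf6, Gdf15, Inhba, Fstl1 and Fstl3 after TAC with AAV9-GFP, and Fstl1 after TAC with AAV9-Cardinal. RLE normalization changed 0 of the 50 calls. Gdf6 and Fstl1 in AAV9-Cardinal against AAV9-GFP after TAC lost their calls without a filter on low counts (0 members called) and with only the 8 mice compared (0 called), and DESeq2 called 1 (Fstl1) and gave no adjusted p for Gdf6. DESeq2 also called 1 member for the difference in TAC response. Inhbb after TAC with AAV9-GFP lost its call without a filter (adjusted p 0.0697) and with only the 8 mice compared (0.0554), and Gdf15 after TAC with AAV9-Cardinal gained one with only the 8 mice compared (0.0414). Counts were lowest for Fst (2 to 28 per mouse) and Bmp2 (6 to 35), and the cause of lost calls was not tested.

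No label says that mice of the same number belong together. Deviations of same-numbered mice from their group means correlated between -0.04 and 0.211 over 16 pairs, 4 of them over 0.1, beside -0.193 to 0.218 over the other 80 pairs, 4 of them over 0.1. The 4 same-numbered pairs over 0.1 were all of mice numbered 1, whose 6 pairs lay between 0.067 and 0.211. The numbers were not taken as pairs in the main fit, and these correlations cannot decide whether mice of the same number belong together. Whether the mice numbered 1 share something was not tested. Mice 5 and 6 of AAV9-Cardinal TAC and mouse 7 of AAV9-GFP TAC share their number with no other heart. A block on number fits these hearts exactly, so they drop out of the comparisons. AAV9-Cardinal TAC is then left with mice 1 and 4, and an effect of the block cannot be told apart from the loss of mice 5, 6 and 7. With the replicate block, 5 members were called after TAC with AAV9-GFP (Inhbb lost its call, adjusted p 0.192), 1 with AAV9-Cardinal (Inhba and Fstl3 lost theirs, 0.304 and 0.109) and 0 between the viruses after TAC (Gdf6 and Fstl1, 0.411 each). Pathway genes called after TAC with AAV9-Cardinal were then 0. All genes called, of 16857 tested, were then 2091 after TAC with AAV9-GFP and 31 after TAC with AAV9-Cardinal. They were 0 between the viruses after TAC, 1 between the viruses after sham and 1 for the difference in TAC response. With the replicate block, log2 fold changes that were not called changed sign: Gdf15 in sham hearts between viruses (0.0271), Bmp2 after TAC with AAV9-Cardinal (0.372), between viruses after TAC (0.279) and in the difference in response (0.114), Bmp4 between viruses after TAC (0.108) and in the difference (0.122), Bmp6 after TAC with AAV9-GFP (-0.206), and Fst after TAC with AAV9-GFP (0.299) and in the difference (-0.289).

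Counts that moved by over 1.5 times were these. For pathway genes, 6 were called after TAC with AAV9-GFP with only the 8 mice compared. After TAC with AAV9-Cardinal, pathway genes called were 2 by DESeq2, 0 without a filter and 0 with only the 8 mice compared, and DESeq2 called 1 between the viruses after TAC. All genes called after TAC with AAV9-Cardinal were 1092, and 615 without a filter. Between the viruses after TAC, all genes called were 17, and became 35 with at least 1 CPM in 4 mice, 428 by DESeq2, 3 without a filter and 3 with only the 8 mice compared. In sham hearts DESeq2 called 4, and 137 for the difference in TAC response. The uncalled difference of Fstl3 between viruses in sham hearts was 0.00108 with at least 1 CPM in 4 mice and 0.000353 by DESeq2, against -0.0008.

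With each mouse left out in turn, pathway genes called after TAC with AAV9-Cardinal ranged from 0 to 2 and all genes from 384 to 1436. Between the viruses after TAC, members called ranged from 0 to 2 and all genes from 0 to 535, the highest without AAV9-Cardinal TAC mouse 1. In sham hearts all genes called ranged from 1 to 3. For the difference in TAC response, members called ranged from 0 to 1 and all genes from 2 to 79, both highest without AAV9-Cardinal TAC mouse 1. Uncalled log2 fold changes that crossed 0 had these ranges. Between the viruses in sham hearts they were -0.215 to 0.113 (Gdf6), -0.286 to 0.574 (Gdf15), -0.0999 to 0.0501 (Bmp4), -0.161 to 0.00805 (Bmp6), -0.0797 to 0.287 (Inhba), -0.0875 to 0.612 (Fst), -0.0148 to 0.0417 (Fstl1) and -0.0588 to 0.0802 (Fstl3). After TAC with AAV9-Cardinal they were -0.229 to 0.247 (Bmp2), -0.135 to 0.128 (Bmp4) and -0.033 to 0.934 (Fst). After TAC with AAV9-GFP they were -0.228 to 0.124 (Bmp6) and -0.416 to 0.273 (Fst), and for Inhbb between the viruses after TAC -0.0879 to 0.306.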
